A study of Arabidopsis thaliana with 3 samples.

Results

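The cytosolic ribosome of Arabidopsis has a small (40S) subunit, and 60 genes encoding its proteins were followed in cells of the root quiescent center (QC), a small group of rarely dividing cells in the root stem cell niche. The genes were taken from a list of loci, and a gene counted as measured when the annotation used here named it, and no other gene, for a probe set. Of the 60 listed genes, 38 were measured, each by 1 probe set, among 13356 genes measured in all. The remaining 22 genes were not named alone for any probe set in that annotation, which names no gene for 8730 of 22810 probe sets, so they were not analysed here and may still lie on the array. The listed genes encode 24 proteins, named here RPS2, RPS3 and so on. Genes were assigned to a protein from general knowledge of the Arabidopsis family, since the annotation used here pairs most of these loci with no protein name. A measured gene was present for 19 proteins, and 13 of them had 2 or more measured copies (32 genes in all), which allowed paralogues of the same protein to be set side by side. The other 5, RPSa, RPS6, RPS15a and RPS20 among them, had no measured gene on the list of 60. Copies of a protein were counted, here and below, within that list only.

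All 3 samples formed a single group. They were protoplasts of Col-0 roots that carried GFP under the WOX5 promoter, a promoter active in the QC, collected 5 days after stratification with no further treatment. RNA of the sorted GFP-positive protoplasts was amplified and hybridised to ATH1 arrays, 1 per sample, and MAS5 gave a linear signal for each probe set. No other cell type was measured, so the values describe the sorted cells and contrast them with nothing, and the sort depends on where the WOX5 promoter is active. Nothing in the labels states that the samples were taken from different plants, so the p-values cover the variation among these 3 samples alone, and that variation may be technical. Each p-value rests on a spread shared by genes of like signal, and not on the gene's own SD printed beside it.

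The 40S subunit binds messenger RNA, joins with initiation factors and reads codons, while the large (60S) subunit forms peptide bonds. Its proteins sit on the body, the platform or the head of the particle, and each is present in a single copy per ribosome. Plants keep several genes for most ribosomal proteins, and the copies can differ in where and how strongly they are transcribed. In dividing root cells ribosomal protein transcripts are known to be abundant.

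Signals are given as log2 of the MAS5 signal for replicates 1, 2 and 3 in that order. As background level, each array was given the 90th percentile of the log2 signals of 6 genes of pollen, tapetum and the shoot meristem, which lay at 4.56, 5.49 and 5.61. Means of the panel genes themselves ran from -3.49 to 0.82 log2 relative to this level. A gene called below background can therefore still lie within the range of the panel. The lower level on replicate 1 raised every value over background on that array. An SD given for a value over background therefore includes the spread of the level itself, an SD of 0.58 log2 over the 3 arrays. Median signals over all probe sets were 76.9, 81.4 and 81.3, and the 18 spike-in probe sets were all highest on replicate 2, with a median ratio of 2.13. Of the QC and stem cell niche markers, 3 of 8 were measured and all 3 lay above background, as did 45.3% of all genes tested. BBM lay at 3.77 ± 0.38, JKD at 1.57 ± 0.64 and AGL42 at 1.14 ± 0.27 (log2 over background, SD, n = 3), while WOX5 was not measured. AGL42 was the nearest to the level (limma, adjusted p = 0.0239), and its call under other settings is not given here. All 7 measured markers of root hair, endodermis, vascular cylinder and root cap also lay above background, between 1.36 and 3.61 log2. The part of other cell types in the signals of the ribosomal protein genes was not tested, and a smaller share of cells using a gene cannot be told apart from less of its RNA per cell.

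Of the measured 40S genes, 34 of 38 (89.5%) lay above background, against 45.3% of the 13350 genes tested. Below background lay 2 (5.26%), AT5G63070 and AT5G09490, against 25.6% of all genes. A further 2, AT5G39850 and AT5G09500, were not called (limma with Benjamini-Hochberg adjustment, adjusted p under 0.05). All 4 of these genes encode RPS9 or RPS15, and each of the 19 proteins had at least 1 copy above background.

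The median member lay 5.48 log2 over background, with quartiles at 3.94 and 6.45 and a range from -3.29 to 8.19. The median of all genes was 0.62, and that of the genes called above was 2.76. A mean log2 signal of 10 or more was found for 25 members (65.8%) and for 5.59% of genes. Another 9 members lay between 7 and 10, and 4 lay under 7. Between these 4 and the other members there was a gap, since no array value of the 4 exceeded 6.53 and no array value of the others fell under 7.12. Probe sets bind their targets with different strength, so an order of signals between genes, also between paralogues, is not an order of transcript amounts. Whether a probe set named for 1 copy also binds transcripts of its paralogues was not tested, so part of a copy's signal may come from another copy.

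**Figure D1:**
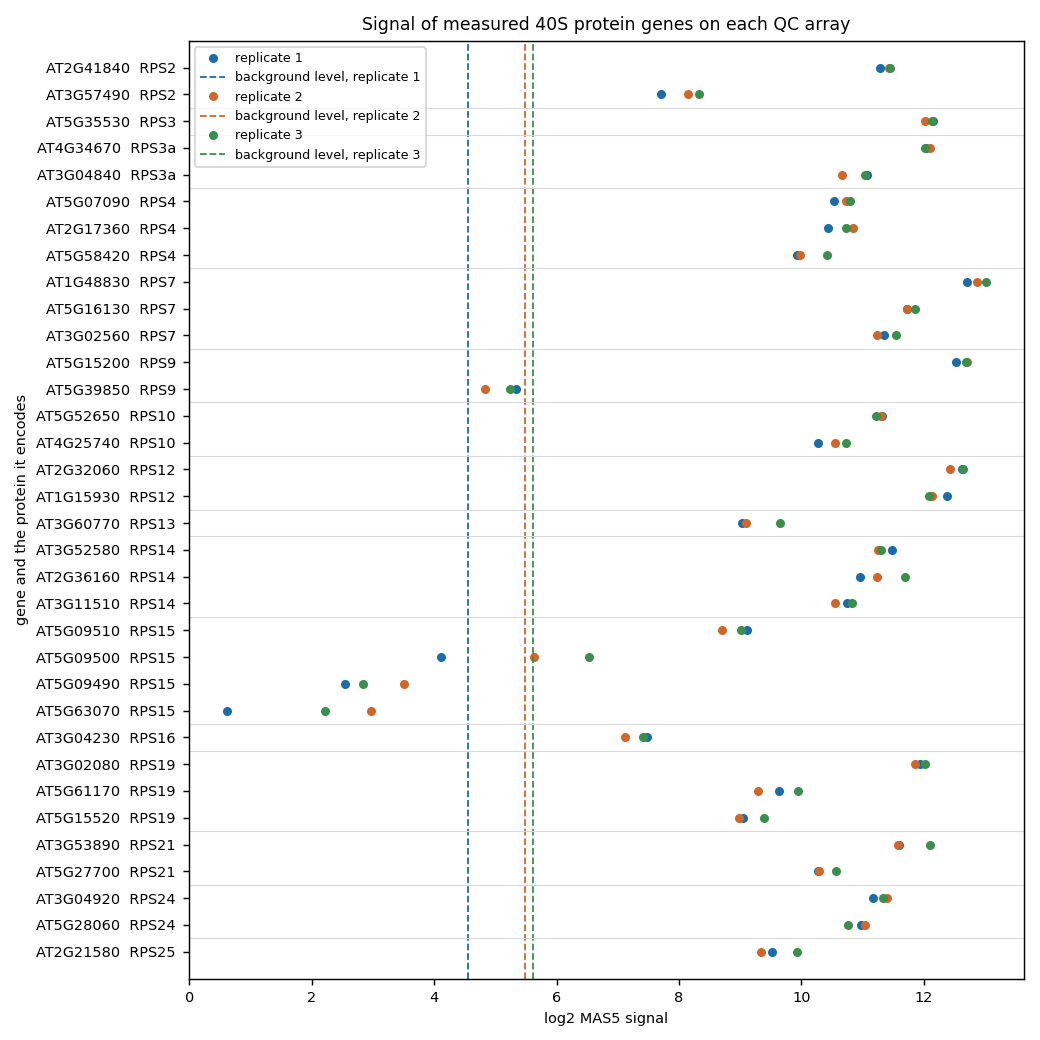
Log2 MAS5 signal (x axis) of 34 measured 40S protein genes (y axis, grouped by protein, highest copy first) on each of the 3 QC arrays, 1 point per array. Dashed lines mark the background level of each array at 4.56, 5.49 and 5.61, and only 4 genes, of RPS9 and RPS15, reach or pass to the left of these lines.

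RPS2, RPS3 and RPS9 are known from yeast and human ribosomes to line the channel where messenger RNA enters the subunit. The RPS2 gene AT2G41840 gave 11.29, 11.43 and 11.45, and its paralogue AT3G57490 gave 7.71, 8.15 and 8.33. The copies did not overlap, and they differed by 3.33 ± 0.23 log2 on the same array, a 10.1-fold ratio of signals (SD, n = 3). The single measured RPS3 gene, AT5G35530, gave 12.14, 12.02 and 12.14, a mean of 6.88 over background.

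The RPS9 genes fell on different sides of the call. AT5G15200 gave 12.52, 12.70 and 12.68, and lay 7.41 ± 0.48 over background. AT5G39850 gave 5.33, 4.83 and 5.25, which is 0.77 over the background level on replicate 1 and -0.66 and -0.37 relative to it on replicates 2 and 3. Its mean of -0.08 ± 0.76 was not called different from background (limma, adjusted p = 0.907). With 1 copy at background only a bound can be given. AT5G15200 was at least 142-fold brighter than AT5G39850, each array's floor being the higher of its background level and the dim gene's own signal.

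RPS3a and RPS14 belong to the platform, near the site where messenger RNA leaves, and RPS21 lies beside them. All 7 measured genes of these proteins lay above background. The RPS3a gene AT4G34670 was the steadiest of all members, with 12.04, 12.10 and 12.02, a range of 0.07 log2. AT3G04840, its paralogue, gave 11.08, 10.66 and 11.04, and the difference was 1.13 ± 0.27.

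The 3 RPS14 genes lay close together. AT3G52580 gave 11.49, 11.25 and 11.31, AT2G36160 gave 10.95, 11.23 and 11.69, and AT3G11510 gave 10.75, 10.55 and 10.83. The order of the first pair turned between arrays, with AT3G52580 ahead by 0.53 on replicate 1 and 0.02 on replicate 2 and differing by -0.39 on replicate 3, so their mean difference of 0.06 ± 0.46 was within the spread between arrays. AT3G11510 was the lowest of the 3 on every array, 0.64 ± 0.14 under AT3G52580. AT2G36160 had the widest range of any member above background, 0.74.

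For RPS21, AT3G53890 gave 11.59, 11.58 and 12.11 and AT5G27700 gave 10.28, 10.28 and 10.56. Both were highest on replicate 3, and their difference of 1.39 ± 0.14 had a smaller SD than the level of either gene (0.30 and 0.16).

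The head of the subunit carries RPS10 and RPS12, at its beak, and also RPS15, RPS16, RPS19 and RPS25. Both RPS12 genes were among the 5 members with the highest signal. AT2G32060 gave 12.63, 12.42 and 12.64, and AT1G15930 gave 12.38, 12.13 and 12.08. They lay 7.34 and 6.98 over background and differed by 0.36 ± 0.17, the smallest distance between the highest and lowest copy of any protein. For RPS10, AT5G52650 gave 11.31, 11.31 and 11.22 and AT4G25740 gave 10.26, 10.56 and 10.72, a difference of 0.77 ± 0.27 that was narrowest on replicate 3.

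RPS15, which reaches from the head towards the decoding site, had 4 measured genes and only 1 of them above background. AT5G09510 gave 9.11, 8.71 and 9.02, a mean of 3.72 ± 0.72 over background. AT5G09500 gave 4.11, 5.64 and 6.53, AT5G09490 gave 2.54, 3.50 and 2.84, and AT5G63070 gave 0.61, 2.97 and 2.21. No array value of these 3 genes reached any value of AT5G09510.

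As linear signals, AT5G63070 gave 1.53, 7.81 and 4.64 where the background levels were 23.6, 44.9 and 49.0. It was called below background (-3.29 ± 0.72, limma, adjusted p = 0.00287). The call for AT5G09490 (-2.26 ± 0.45, limma, adjusted p = 0.0234) was lost without replicate 1, 2 or 3 in turn, with adjusted p = 0.0677, 0.0731 and 0.112. Both means lay within the range of the panel genes themselves, -3.49 to 0.82, so a call below background does not set these genes apart from the panel. A MAS5 signal below the level of the panel gives no transcript amount.

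AT5G09500 was the least steady of all members, with a range of 2.42. Relative to the background level it lay at -0.45 on replicate 1, 0.15 on replicate 2 and 0.91 on replicate 3, with a mean of 0.20 ± 0.68 (limma, adjusted p = 0.758). AT5G09490, AT5G09500 and AT5G09510 are direct neighbours among the protein-coding genes of chromosome 5, and AT5G63070 lies 4963 protein-coding genes away. With the same floor, AT5G09510 was at least 10.3-fold brighter than AT5G09500 and at least 13.2-fold brighter than AT5G09490 and AT5G63070.

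AT3G02080, an RPS19 gene, gave 11.94, 11.86 and 12.02. Its paralogue AT5G61170 gave 9.64, 9.28 and 9.94, and AT5G15520 gave 9.04, 8.98 and 9.38. The 3 genes kept this order on every array, with AT3G02080 above AT5G15520 by 2.81 ± 0.15 and AT5G61170 above AT5G15520 by 0.49 ± 0.16. RPS19 is known in humans for its role in building the subunit's head.

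Among the listed genes, RPS16 and RPS25 had 1 measured gene each. For RPS25 it was the only gene listed, and measured copies outside the list were not counted. The RPS16 gene AT3G04230 gave 7.48, 7.12 and 7.41. At 2.12 ± 0.70 it was the lowest member called above background (limma, adjusted p = 4.5e-07, and 3.12e-40 to 0.00546 over the alternatives). AT2G21580, for RPS25, gave 9.52, 9.34 and 9.92. The other listed genes of RPS16, AT2G09990 and AT5G18380, were named together for 1 probe set, which gave 11.88, 11.66 and 12.07 and cannot be divided between them.

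RPS4, RPS7, RPS13 and RPS24 are proteins of the body. All 3 RPS7 genes gave high signal in a fixed order. AT1G48830 gave 12.71, 12.86 and 13.02, AT5G16130 gave 11.72, 11.72 and 11.86, and AT3G02560 gave 11.35, 11.24 and 11.54. The highest and lowest differed by 1.49 ± 0.13, and AT5G16130 and AT3G02560 differed by 0.39 ± 0.08, the least variable difference of any pair with both copies above background.

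The RPS4 genes AT5G07090 and AT2G17360 were not separated. They gave 10.54, 10.72 and 10.79 and 10.44, 10.85 and 10.72, a difference of 0.01 ± 0.12 whose sign changed between arrays. AT5G58420 gave 9.93, 9.97 and 10.42 and lay under AT5G07090 by a mean of 0.58 ± 0.19, on all 3 arrays.

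For RPS24, AT3G04920 gave 11.17, 11.40 and 11.33 and AT5G28060 gave 10.97, 11.04 and 10.76, a difference of 0.37 ± 0.19. The single measured gene of RPS13, AT3G60770, gave 9.03, 9.10 and 9.65. It lay above background by 4.04 ± 0.43.

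In 11 of the 13 proteins with several measured copies, all of the measured copies lay above background. In these 11 the highest and the lowest copy differed by a median of 1.13 log2. The distance was over 2 log2 for 3 proteins, RPS2 and RPS19 among them, and under 1 log2 for 5 others, RPS10, RPS14, RPS4, RPS24 and RPS12. The highest copy was above the lowest on all 3 arrays for all 11, although the labels highest and lowest were themselves taken from these means. Of the 19 pairs of paralogues with both copies above background, 17 kept their sign on all arrays, and the exceptions were the RPS4 and RPS14 pairs named above. Several of these pairs share a gene. No share was computed for pairs of unrelated genes, so the count is not particular to paralogues. Over these 19 pairs the SD of the difference over arrays had a median of 0.19 and ran from 0.08 to 0.46.

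**Figure D2:**
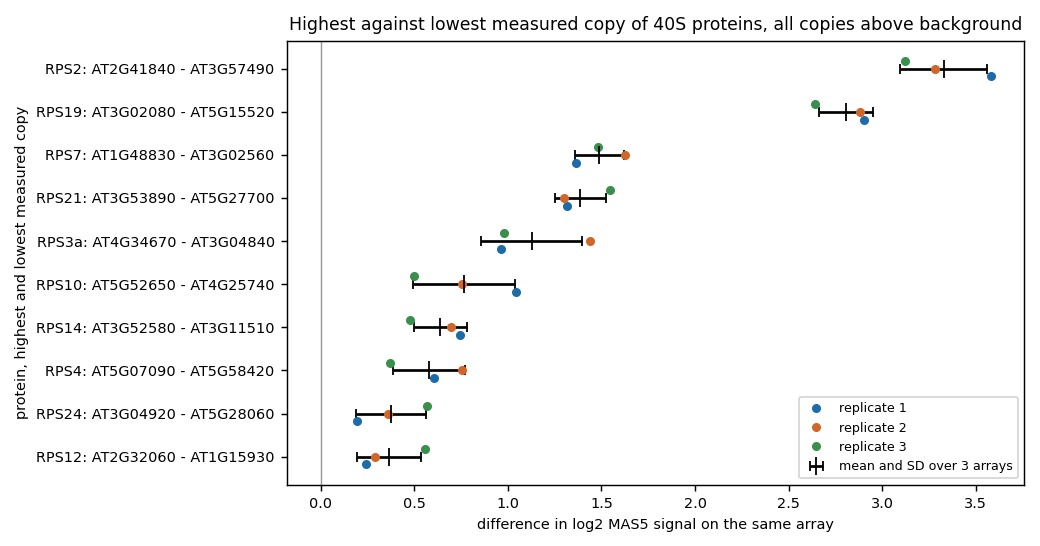
Difference in log2 MAS5 signal (x axis) between the highest and lowest measured copy of 10 proteins with all copies above background (y axis), with 1 point per array and the mean and SD over the 3 arrays in black. Differences run from 0.36 for RPS12 to 3.33 for RPS2.

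The members above background varied little between arrays. All 34 stayed within 2-fold over the 3 arrays, against 93.2% of all genes above background, and 36 of the 38 measured members did so (94.7%), against 56.7% of all genes. The exceptions, AT5G09500 and AT5G63070, had ranges of 2.42 and 2.35 and were RPS15 genes near or under background. The next widest ranges were those of AT5G09490 (0.96), AT2G36160 (0.74) and AT5G61170 (0.66). The median SD of members above background was 0.16 log2, from 0.04 to 0.37, and that of all genes above was 0.23.

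At matched signal the spreads lay closer together. At log2 10 or more the median SD was 0.14 for members and 0.15 for all 746 genes of that level. Between 7 and 10 it was 0.30 for the 9 members and 0.22 for genes, so the dimmer members had the higher median there. Over the 38 members, log2 signals of different arrays had Pearson's r of 0.985, 0.986 and 0.991 and Spearman's rho of 0.986, 0.981 and 0.985, for replicates 1 and 2, 1 and 3, and 2 and 3. Over all genes r was 0.869, 0.882 and 0.865. These are correlations across genes on arrays that share their probes, and genes are not independent replicates.

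A small shift common to many members was seen between arrays. As deposited, 19 of the 34 members above background (55.9%) were highest on replicate 3, against 35.4% of all genes above. On replicate 2, 15 members (44.1%) were lowest, against 32.8% of genes. The median deviation from a gene's own mean was -0.03, -0.08 and 0.09 log2 on replicates 1, 2 and 3 for the members. For all genes above background it lay between -0.0044 and 0.0112 on the 3 arrays.

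The largest rises on replicate 3 were those of genes from different parts of the subunit, among them RPS13 (AT3G60770), RPS14 (AT2G36160), RPS21 (AT3G53890) and RPS25 (AT2G21580). Not all members followed, and RPS24 (AT5G28060) and RPS10 (AT5G52650) were lowest on that array. Genes of 60S proteins above background had medians of -0.0024, -0.07 and 0.10. With each array centred on the median of all genes, replicate 2 was lowest for 22 of 34 members (64.7%, against 43.4% of genes) and highest for 2, and replicates 1 and 3 were each highest for 16. Replicate 1 was lowest for 13 members as deposited and for 14 after quantile normalization, beside 15 for replicate 2 in both, so these counts do not separate replicates 1 and 2. The place of replicate 1 changed with the scaling. The spike-ins were highest on that same array, replicate 2, and their part in the shift was not tested.

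**Figure D3:**
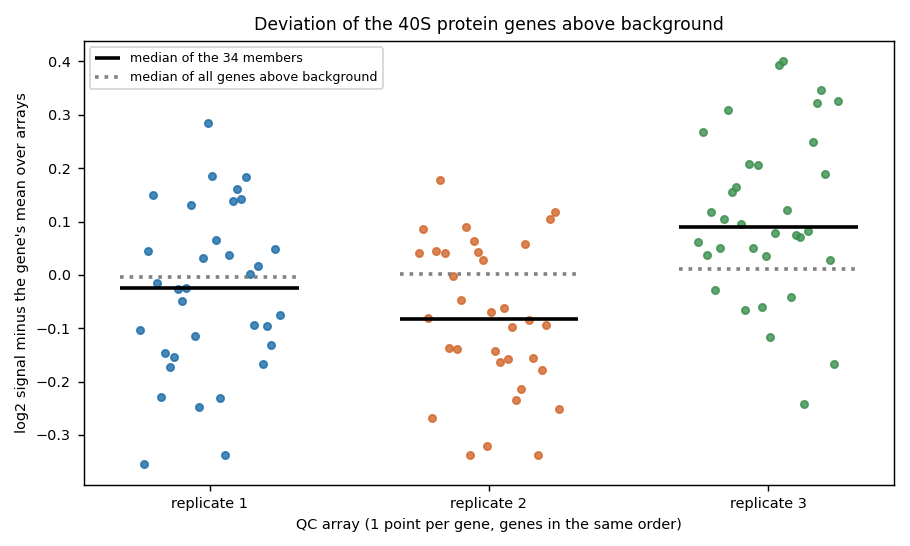
Log2 signal minus the gene's own mean over arrays (y axis) on each QC array (x axis), 1 point for each of the 34 members above background, on the scale as deposited. Solid bars mark the median of the members at -0.03, -0.08 and 0.09, and dotted bars mark the median of all genes above background.

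Other genes of translation were described from lists chosen with the members. Of the 60S protein genes, 81 of 129 were measured, and 73 (90.1%) lay above background, 4 below and 4 were not called, with a median of 5.66 log2 over background beside 5.48 for the 40S members. The highest were AT1G52300 at 8.14 ± 0.70 and AT2G19730 at 8.02 ± 0.64, and the lowest were AT1G36240 at -4.19 ± 1.33 and RSU1, a transcribed pseudogene, at -3.90 ± 1.86. Both subunits thus had most measured genes far above background and a few at or under it.

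Among 31 further genes, listed here as encoding 40S proteins but outside the list of 60, 9 were measured, 7 of them above and 2 below. AT4G39200 led at 7.57 ± 0.44 and AT3G56340 followed at 6.50 ± 0.60, while AT2G16360 and AT2G39590 lay at -2.77 ± 2.07 and -2.79 ± 0.91. These genes were not assigned to proteins here, so the proteins described above may have further measured copies among them.

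Initiation factors that act on the 40S subunit, with the ribosome-bound scaffold RACK1, were listed as 35 genes, of which 12 were measured and 10 lay above background, with a list median of 4.24. AT5G54940, of the eIF1 family that takes part in choosing the start codon, lay at 7.64 ± 0.39, and AT4G27130 of the same family at 5.33 ± 0.52. AT1G54290, also of that family, had 0.91 ± 0.85 and was not called, nor was AT5G01940 with 1e-04 ± 1.08. AT1G54290 was called above under 6 of the alternatives, with the 75th percentile of the background panel, for example, at 1.81 (limma, adjusted p = 0.00943, and 2.71e-08 to 0.33 over the alternatives).

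Factors that assemble the small subunit or process its RNA were measured for 9 of 16 genes, all above background and with lower values than most 40S members, a median of 2.81. The highest were AT3G05060 at 4.89 ± 0.63 and AT3G57000 at 4.55 ± 0.28. PCN and DIM1A, the latter a methylase of ribosomal RNA, were lowest at 1.19 ± 0.63 and 1.18 ± 0.58.

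The TOR kinase pathway acts on ribosomes in part through RPS6, which was not measured. Of its 7 listed genes only RAPTOR1 and RAPTOR2, which present substrates to TOR, were measured, at 0.83 ± 0.75 and 0.43 ± 0.64, and neither was called (limma, adjusted p = 0.123 and 0.485), with 0 of the 2 at an unadjusted p under 0.05. Small-subunit proteins of plastid and mitochondrial ribosomes were measured for 4 of 17 genes. AT5G24490 at 3.85 ± 0.57 and AT3G49080 at 2.65 ± 0.68 lay above background, and AT3G13120 and AT1G64510, at 0.92 ± 0.24 and 0.03 ± 0.75, were not called.

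**Figure D4:**
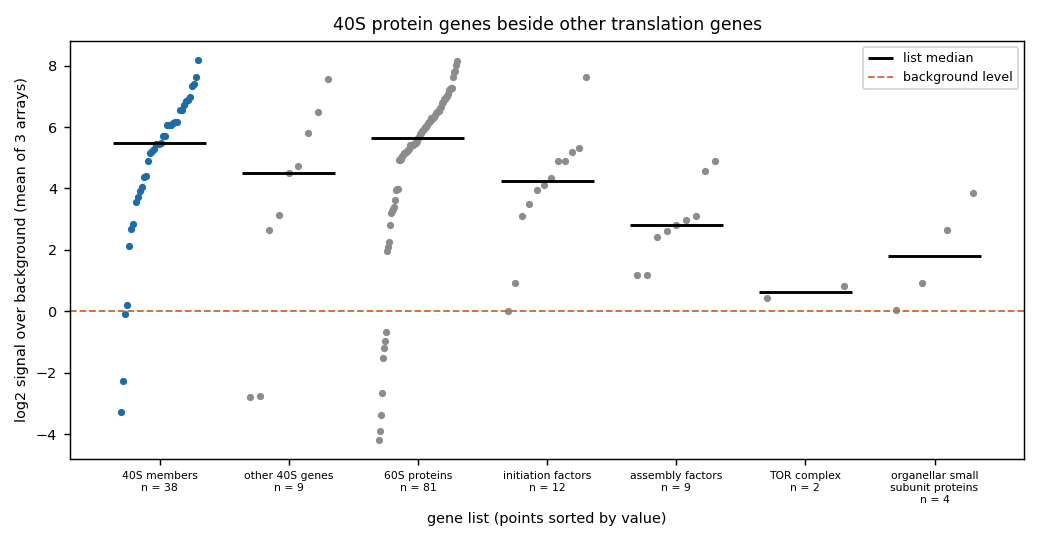
Mean log2 signal over background (y axis) of every measured gene of 7 lists (x axis, points sorted by value within a list), with the list median as a bar and the background level as a dashed line. The 40S members have a median of 5.48 and the 60S proteins of 5.66, above the assembly factors at 2.81, and both ribosomal lists include a few genes under background.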

How the data were processed

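The authors deposited 1 MAS5 signal, a linear intensity in 1 colour, for each of 22810 probe sets on each of 3 ATH1 arrays of QC samples. The MAS5 version is not given in the sources used, nor are its settings. Each array had a mean of 250 once the 2% of values at either end were left out, which shows a shared scaling that hides any change in total RNA. All signals were above 0 and entered as log2 without an offset. Gene names came from GEO's platform table and RefSeq (TAIR10.1, names and neighbours only), and 13513 probe sets named 1 gene. For each of 13350 genes, limma 3.58.1 (R 4.3.3) tested whether log2 signal minus the array's background level differed from 0, in a two-sided test of the intercept with a variance trend and Benjamini-Hochberg adjustment. The 6 panel genes (ANX1, ANX2, MGH3, AT5G07230, AMS and CLV3) were left out. Since limma estimated infinite prior degrees of freedom, the trend alone set every gene's spread. The script was checked on simulated data with 1 background level for all arrays, so the check did not cover the spread of that level between arrays. No test was made over the members, between paralogues or between arrays, and the number of arrays limits the precision.

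The members and all lists were chosen with earlier results of these data known. Full values were planned for the highest and lowest copy of each protein, the 5 highest and 5 lowest members, the 5 with the widest range and every member not called above, and for the 2 highest and 2 lowest genes of each other list. Alternatives were the 75th and 95th percentile of the panel, bacterial controls (27 probe sets) or pseudogenes as background, quantile normalization, an offset of 16, other rules for probe sets, no variance trend, leaving out the dimmest 25% of genes and leaving out each replicate. The panel without AMS and 1 common level were added after the data were seen. Values of some listed genes are not reported here, although the counts and medians include them. A planned comparison of promoter and protein sequences was not made.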

Additional observations from a re-analysis of the deposited data

How the results depend on the processing

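Of the members, 34 lay above background under every alternative, except that 35 did with bacterial controls as background, where AT5G09500 joined them at 1.20 (limma, adjusted p = 0.00991; 0.00991 to 0.893 over the alternatives). Members below background numbered 1 with the 75th percentile, bacterial controls or the panel without AMS and without any 1 replicate (1 to 1), and 0 without the dimmest 25% of genes, which removes them from the test. AT5G63070 stayed below in every setting that tested it. Without AMS the median member lay 6.45 over background, with bacterial controls 6.49, with the 75th percentile 6.40 and with the offset 4.92. Over the alternatives, all genes above background numbered 5103 to 7605, beside 6051 in the main setting. Those below numbered 0 to 4193, beside 3414. All genes below background numbered 1560 without AMS, 1713 with bacterial controls, 1636 with the 75th percentile, 2266 with pseudogenes, 0 without the dimmest 25% and 2226 to 2623 without 1 replicate. The 60S genes above background numbered 73 throughout. TOR genes above numbered 1 with the 75th percentile, without AMS and with 1 common level, and 2 with bacterial controls or pseudogenes, and organellar genes above numbered 4 with bacterial controls and 3, with AT3G13120 added, with the 75th percentile, pseudogenes or 1 common level and without the dimmest 25%, replicate 1 or AMS. AT1G54290 was also called above with the 75th percentile, bacterial controls, pseudogenes or 1 common level and without the dimmest 25% or AMS. The centred member median on replicate 1, relative to its mean over arrays, was 0.05, and -0.0561 after quantile normalization. The causes were not tested.

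Among values over background, signs turned only for genes near that level. AT5G39850 had 0.87 without AMS, 0.37 with pseudogenes, 0.91 with bacterial controls, 0.82 with the 75th percentile, and -0.51 to 0.20 without 1 replicate. AT5G09500 had -0.21 with the 95th percentile and -0.15 to 0.53 without 1 replicate. AT1G64510 had -0.38 with the 95th percentile, -0.0138 with the offset and -0.28 to 0.44 without 1 replicate. AT5G01940 had -0.41 with the 95th percentile, -0.0446 after quantile normalization, -0.0546 with the offset and -0.60 to 0.45 without 1 replicate. The call for AT5G09490 was lost with the 75th percentile (limma, adjusted p = 0.214), bacterial controls (0.198) and the panel without AMS (0.234). Among the other lists, the calls of AT2G16360, AT2G39590, PCN and DIM1A were lost in some settings (limma, highest adjusted p = 0.205, 0.105, 0.192 and 0.212). Of all 26 pairs of paralogues, dim copies included, 24 to 25 had 1 sign on all arrays, and members within 2-fold 36 to 38. The mean difference of AT3G52580 and AT2G36160, of RPS14, ran from -0.18 to 0.28 without 1 replicate. That of AT5G07090 and AT2G17360, of RPS4, ran from -0.03 to 0.08. No paired analysis was possible because all samples form 1 group. With 3 arrays and no detection calls used, a dim gene's signal cannot be told apart from probe background.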

Other observations

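Of the 22 genes not named alone for a probe set, 9 were named with other genes, and 13 were not named in the annotation used, which does not show that they are absent from the array. The 14 probe sets that name several genes, at least 1 of them a 40S protein gene, gave mean log2 signals from 9.83 to 12.06, or 4.61 to 6.84 over background. Their signal cannot be assigned to one gene. The probe set shared by AT1G58380, an RPS2 gene, with AT1G58684, AT1G58983 and AT1G59359 gave 11.72, 11.74 and 11.72. For RPS3, AT2G31610 and AT3G53870 shared a probe set that gave 11.45, 11.66 and 11.49. The RPS16 genes AT2G09990 and AT5G18380, whose paralogue AT3G04230 was the lowest member called above background, shared a probe set with 11.88, 11.66 and 12.07. The RPS20 genes AT3G45030 and AT5G62300 were named together for a probe set that gave 11.93, 12.01 and 12.25.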
